A study of Rattus norvegicus with 4 samples.

Results

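The genes described here are 10 genes of the Hippo pathway, namely Yap1, Wwtr1, Tead1, Tead3, Lats1, Lats2, Amotl1, Amotl2, Ccn1 and Ccn2. They were chosen by name, with earlier results of these data known. Their rows were found in the peak lists through the NCBI rat gene ID of each symbol. N6-methyladenosine (m6A) peaks were listed for 8 of the 10 genes, out of 8729 genes with a peak in either group. m6A-seq compares RNA fragments captured by an m6A antibody (IP) with the starting RNA (input), and a peak is a stretch of RNA enriched by the antibody. The cells were neonatal rat cardiac fibroblasts (CFs) of Sprague-Dawley rats taken within 3 days of birth. The Vector group, labelled wild type, received the empty plasmid, and the FTO group received a plasmid with rat FTO cDNA, in both cases at 1 µg/ml for 48 h according to the methods. FTO is an enzyme that removes methyl groups from adenosine in RNA. Each group consisted of 1 IP library and 1 input library, and 1 peak list was deposited per group, so that no difference below has a replicate check and no p-value was computed.

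The Hippo pathway is a kinase cascade that restrains growth. LATS kinases phosphorylate the coactivators YAP and TAZ, which keeps them out of the nucleus, while unphosphorylated YAP and TAZ bind TEAD transcription factors and switch on genes such as Ccn1 and Ccn2. Angiomotins hold YAP and TAZ in the cytoplasm or at cell junctions. In fibroblasts, YAP and TAZ respond to the stiffness of the matrix and are known for their part in fibrosis.

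In all, 21249 Vector peaks and 17796 FTO peaks were deposited. For each peak they give a length in base pairs, a transcript and, for most peaks, a gene ID, and the median length was 203 bp and 228 bp. Depth and peak height are not in these values, so that a number of peaks is neither a level of methylation nor a level of the transcript. The transfected gene, Fto, had 3 Vector peaks and 9 FTO peaks, and plasmid and endogenous transcripts were not told apart.

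Of the fibroblast markers examined, 5 of 8 carried a peak in at least 1 list, with 11 Vector peaks and 9 FTO peaks together. Pdgfra, a receptor of fibroblasts, had 7 Vector peaks and 6 FTO peaks, and Tcf21, a transcription factor of the lineage, had 1 in each. Thy1 had 2 and 1, Postn 1 and 0 and Ddr2 0 and 1, whereas Vim, Col1a1 and Dcn had 0 in both. Markers of other heart cells also carried peaks. The 7 cardiomyocyte markers had 22 Vector peaks and 24 FTO peaks together, on 5 of the genes, with Ttn and Nppa at 0. Myh7 led the Vector list with 8 (5 in FTO), and Myh6 and Tnnt2 had the most in the FTO list with 7 each (7 and 4 in Vector). The 3 leukocyte markers had 12 and 9 peaks, of which Ptprc had 10 and 7, Csf1r 2 and 1 and Cd68 0 and 1. Of the smooth muscle markers, Myh11 had 17 and 15, with Acta2 and Cnn1 at 0, and of the 4 endothelial markers Tek alone had peaks, 0 and 2. The part of these cells in the results below was not tested, and peak numbers do not measure how many such cells were present.

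Together the 10 genes had 32 Vector peaks and 31 FTO peaks, or 37.0 FTO peaks when scaled by the size of the lists, which turns the direction of the sum. The whole FTO list was shorter than the Vector list, at 1 FTO peak for every 1.194 Vector peaks. Of the 8 genes with peaks, Yap1, Tead1 and Lats1 had 1 peak fewer in the FTO list, Tead3, Lats2 and Amotl1 had as many, and Wwtr1 and Amotl2 had 1 more. Among all 8729 genes, 41.4% had fewer FTO peaks, 37.4% as many and 21.2% more, against 3, 3 and 2 of the 8 genes here. When the FTO numbers were multiplied by 1.194, the same 3 genes had fewer peaks and the other 5 had more, but the scaled value of Yap1 was 5.97 against 6. Equal numbers count as more under this scaling, also for the 37.4% of all genes with as many peaks. The shares over all genes after scaling were not computed. The median difference, FTO minus Vector, was 0 for the 8 genes and 0 for all genes.

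**Figure D1:**
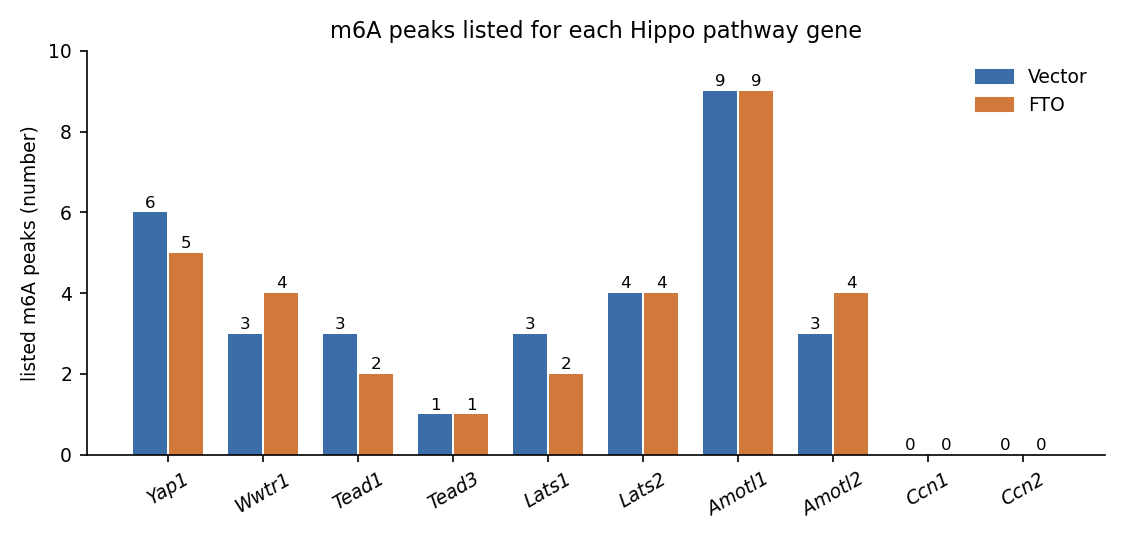
Number of listed m6A peaks (vertical axis) for each of the 10 genes in the Vector and FTO lists, 1 bar per list. No gene differed by more than 1 peak between the lists, and Ccn1 and Ccn2 had 0 in both.

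A peak was counted as common when the other list held a peak of the same gene and the same length. What sets the listed lengths was not tested, so that equal length does not by itself show an unchanged enriched stretch. By this measure 29 of the 32 Vector peaks were common, which is 90.6% (95% Wilson interval 75.8% to 96.8%). Over all genes the share was 57.3% (56.6% to 57.9%). Counted from the FTO list, 29 of 31 peaks were common, or 93.5% (79.3% to 98.2%), beside 68.4% (67.7% to 69.0%) over all genes. The intervals cover counting error only, and peaks of the same gene are not independent of each other. All 8 genes had peaks in both lists, whereas all genes include those listed in 1 group alone, which can have no common peak. Among the latter, 1052 genes had 1 Vector peak and no FTO peak. The median number of common lengths was 0 for genes with 1 Vector peak and 7 for genes with 9. The share over all genes was not matched to the 10 genes in these respects. In the 7 genes with 2 or more common lengths, these came in the same order of peak number in both lists. How often this holds over all genes was not counted. Whether peak numbers run along the genome was not checked. If they do, peaks at the same sites keep their order, and the order adds nothing to the equal lengths. The peaks listed in 1 group alone numbered 5, from 65 to 228 bp long. Common peaks held 13479 of the 13885 bp of Vector peaks, or 97.1%, against 56.3% over all genes.

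**Figure D2:**
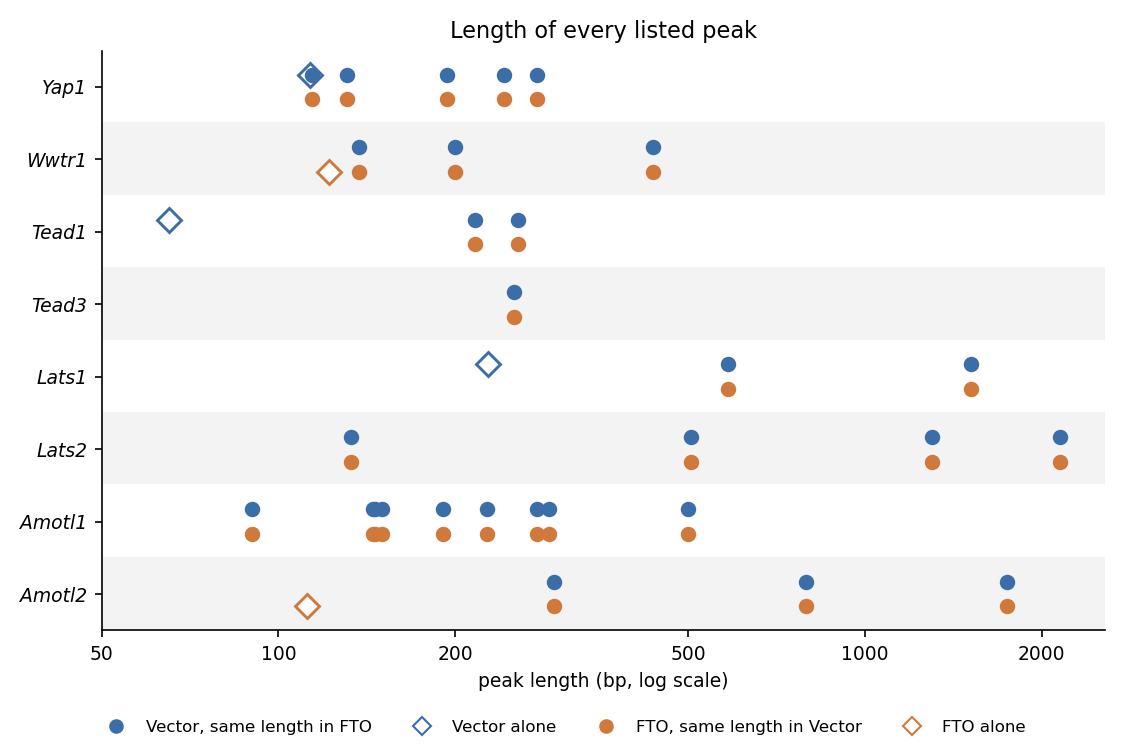
Length of every listed peak in bp (horizontal axis, log scale) for the 8 genes with peaks, with the Vector list above the FTO list in each row. Filled circles have the same length in the other list and open diamonds do not; 3 Vector peaks and 2 FTO peaks are open.

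Yap1 encodes the coactivator YAP, the main effector of the pathway. In order of peak number, its Vector peaks were 113, 131, 194, 114, 242 and 276 bp long. Its FTO peaks were 131, 194, 114, 242 and 276 bp long. Thus 5 lengths recurred in the same order, and the first Vector peak, of 113 bp, had no partner. The Yap1 peaks lay on 2 transcripts in each list, and their summed length was 1070 bp for Vector and 957 bp for FTO. Of the 277 genes with 6 Vector peaks, Yap1 among them, 34.7% had 5 or more lengths in common between the lists.

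Wwtr1 encodes TAZ, the relative of YAP. It had Vector peaks of 200, 137 and 435 bp and FTO peaks of 122, 200, 137 and 435 bp. Every Vector length was found again, and a peak of 122 bp stood before them in the FTO list, so that the summed length was 772 bp and 894 bp.

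Tead1 and Tead3 encode DNA-binding partners of YAP and TAZ. Tead1 had Vector peaks of 216, 256 and 65 bp and FTO peaks of 216 and 256 bp. The peak that was missing, of 65 bp, was the shortest of all peaks of the 10 genes. Tead3 had a single peak of 252 bp in each list. As a description of how common such patterns were, 57.8% of the 964 genes with 3 Vector peaks had 2 or more lengths in common, and 43.5% of the 3341 genes with 1 Vector peak had that length in both lists.

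Lats1 and Lats2 encode the kinases that act directly on YAP and TAZ. Lats1 had Vector peaks of 228, 1514 and 583 bp and FTO peaks of 1514 and 583 bp. The 228 bp peak of Lats1 was the longest peak of the 10 genes to be listed in 1 group alone. Lats2, which is also a target gene of YAP, had peaks of 2150, 1298, 133 and 504 bp in both lists, without any difference in number, length or order. The 2150 bp peak was the longest of the 10 genes. The summed length was 4085 bp in each group for Lats2, and 2325 bp and 2097 bp for Lats1. All 4 lengths were in common for 19.8% of the 605 genes with 4 Vector peaks.

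Amotl1 and Amotl2 encode angiomotin-like proteins that bind YAP and TAZ. Amotl1 had the most peaks of the 10 genes, 9 in each list. In both lists they were 276, 227, 191, 150, 146, 90, 145, 289 and 500 bp long, in this order. Of the 69 genes with 9 Vector peaks, 7 (10.1%), Amotl1 included, had all 9 lengths in the FTO list.

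Amotl2, a gene that YAP and TAZ also switch on, had Vector peaks of 793, 295 and 1742 bp. Its FTO peaks were 112, 793, 295 and 1742 bp long. The added peak of 112 bp was the only Amotl2 peak under 200 bp, and it was listed on the same transcript as the 1742 bp peak. Of the 964 genes with 3 Vector peaks, 13.6% had 4 or more FTO peaks, as Wwtr1 and Amotl2 did, and 21.2% had all 3 lengths in common.

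Ccn1 and Ccn2, also known as Cyr61 and Ctgf, encode secreted matricellular proteins and are the standard readout of YAP and TAZ activity. No peak was listed under the gene ID of either, with Vector or with FTO. The lists also hold 248 and 213 peaks without a gene ID. None of these lay on a transcript listed for the 8 other genes, but no transcript is paired with Ccn1 or Ccn2 in the lists. No peak in these lists says nothing about how strongly the 2 genes were expressed.

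**Figure D3:**
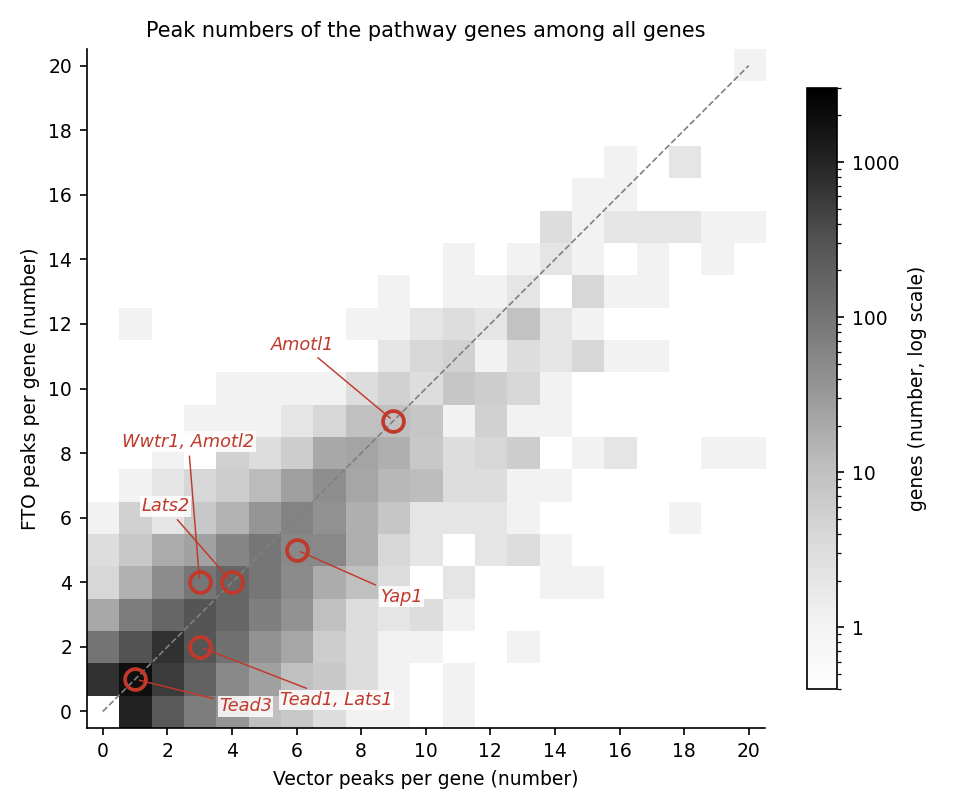
Vector peaks (horizontal axis) and FTO peaks (vertical axis) per gene for 8720 of the 8729 genes, with darker cells holding more genes on a log scale and the 8 genes circled. Each circle lies on the dashed line of equal numbers or 1 peak away from it; 9 genes beyond 20 peaks are not drawn.

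The same sets of lengths were listed in both groups for Tead3, Lats2 and Amotl1, that is for 3 of the 8 genes, and for 21.0% of all genes. By length class, all 8 Vector peaks of at least 500 bp were common, 11 of 12 from 200 bp to below 500 bp, 9 of 10 from 100 bp to below 200 bp and 1 of 2 below 100 bp. Over all genes the share of Vector peaks in common was 56.9%, 62.8%, 56.7% and 49.3% in these classes, from the longest to the shortest. Counted from the FTO list, it was 59.7%, 71.3%, 73.5% and 70.0%, lowest in the longest class. These long peaks lay on Lats1, Lats2, Amotl1 and Amotl2, and each of them had the same length with Vector and with FTO.

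The peak numbers of these genes were not continuous. From the first to the last number of each gene, the Vector list spanned 43 numbers, of which 32 were listed and 11 were not. The FTO list spanned 37 numbers, with 31 listed and 6 not. For Wwtr1 the Vector list spanned 7 numbers with 3 peaks and the FTO list 5 numbers with 4 peaks, and for Amotl1 it was 12 numbers with 9 peaks in each. Numbers that were not listed gave no length, and whether they stand for peaks of these genes was not tested.

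The rest of the pathway was described with 3 gene lists, in which 51 genes are not among the 10. Peaks were listed for 39 of these 51 genes. The FTO list had fewer peaks for 15 of the 39, the same number for 14 and more for 10. These shares, of 38.5%, 35.9% and 25.6%, were near the 41.4%, 37.4% and 21.2% of all genes. In sum there were 158 Vector peaks and 144 FTO peaks, a direction that turned to 171.9 scaled FTO peaks when multiplied by 1.194. The counts became 15 genes with fewer and 24 with more, because equal numbers count as more under this scaling. They would do so for the 37.4% of all genes with as many peaks too, and scaled shares over all genes were not computed. The share of Vector peaks in common was 70.9% (63.4% to 77.4%), between the share of the 10 genes and that of all genes, and the difference from either was not tested. The same set of lengths in both lists was found for 8 of the 39 genes (20.5%), beside 21.0% of all genes.

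**Figure D4:**
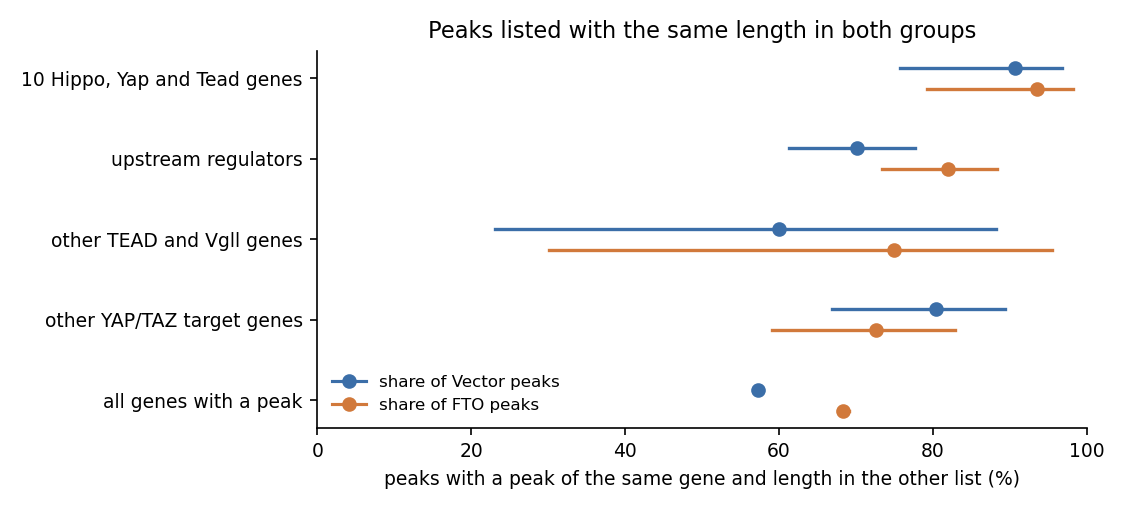
Share of peaks, in percent, that had a peak of the same gene and length in the other list, with 95% Wilson intervals for counting error, for the 10 genes, the other pathway genes by list and all genes. Points are 90.6% and 93.5% for the 10 genes and 57.3% and 68.4% for all genes, for Vector and FTO peaks respectively.

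Upstream of YAP, 24 of 28 regulators carried peaks. They numbered 117 with Vector and 100 with FTO, or 119.4 FTO peaks when multiplied by 1.194, which turns the direction of the sum. Fewer FTO peaks were listed for 10 regulators, the same number for 9 and more for 5. These are 41.7%, 37.5% and 20.8% of the 24, close to the 41.4%, 37.4% and 21.2% of all genes. After scaling, 10 regulators had fewer and 14 had more, with equal numbers counted as more. The same would hold for the 37.4% of all genes with as many peaks, and shares over all genes after scaling were not computed. Among the examples chosen after their values were seen, Stk3, which encodes the kinase MST2, had lengths of 176, 193 and 126 bp in both lists, and Sav1, its scaffold, had lengths of 1221, 144, 271, 447 and 112 bp in both. Stk4, which encodes MST1, had 8 Vector peaks and 6 FTO peaks, and the missing peaks of 129 and 3871 bp included its longest. Mob1a and Mob1b, cofactors of LATS, had no peak.

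Tnik and Fat4 differed most in number among the 39 genes. Tnik, a kinase of the MAP4K family, had Vector peaks of 424, 57, 176, 67, 205, 111, 189 and 185 bp and no FTO peak. Of its relatives, Map4k4 had 13 Vector peaks and 10 FTO peaks, and Mink1 had 5 in each. Fat4, a giant protocadherin, had 8 and 4 peaks. Its Vector peaks were 5747, 351, 923, 4350, 105, 125, 218 and 2955 bp long, and its FTO peaks were 5747, 923, 4350 and 2952 bp long. Each of the 4 longest Vector lengths had an FTO length within 3 bp, and the 4 shorter ones had none. Dchs1, the ligand of Fat4, had the lengths 3244, 1026, 1893 and 42 bp in both.

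Dlg1, a polarity scaffold, had 3 Vector peaks and 1 FTO peak, while Llgl1, another polarity gene, had 0 and 1. Wwc2, a scaffold that promotes LATS activity, differed in the opposite direction with 9 Vector peaks and 12 FTO peaks. Pairing by length gave 7 common peaks. Ptpn14, a phosphatase that binds YAP, had 10 and 11 peaks, and all 10 Vector lengths were found in the FTO list.

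Among the other TEAD genes and the Vgll cofactors, which compete with YAP for TEAD, 3 of 6 genes had a peak. Vgll3 had lengths of 162, 286 and 528 bp in both lists. Vgll4 had a Vector peak of 190 bp and no FTO peak. Tead4, named here after its values were seen, had a single peak in each list, of 3950 bp in the Vector list and 1201 bp in the FTO list. Tead2 had no peak in either, so that Tead1 alone of the TEAD genes differed in number, and once peaks under 100 bp were left out it too had 2 in each list.

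Of 18 YAP and TAZ target genes that are not among the 10, 13 had peaks. Their sum was 46 Vector peaks and 51 FTO peaks, or 60.9 FTO peaks after scaling by 1.194. More FTO peaks were listed for 6, the same number for 3 and fewer for 4, beside 21.2%, 37.4% and 41.4% over all genes. The list is short, and this difference from all genes was not tested. Myof, which encodes the membrane repair protein myoferlin, and Crim1, which encodes a receptor-like protein that binds BMPs, each had 4 and 6 peaks. Ccdc80, which encodes a matrix protein, had 2 and 4, with FTO peaks of 81, 149, 137 and 1886 bp, of which the last 2 were also the Vector peaks. F3, which encodes tissue factor, had a Vector peak of 202 bp and no FTO peak. Nuak2, a kinase, had the lengths 315, 121, 152 and 1968 bp in both lists. No peak was listed under the gene IDs of Axl, Nt5e, Foxf2, Tgfb2 and Arhgef17 in either list, and the ID used for Arhgef17 may differ from the one in the authors' annotation, which would also give 0.

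**Figure D5:**
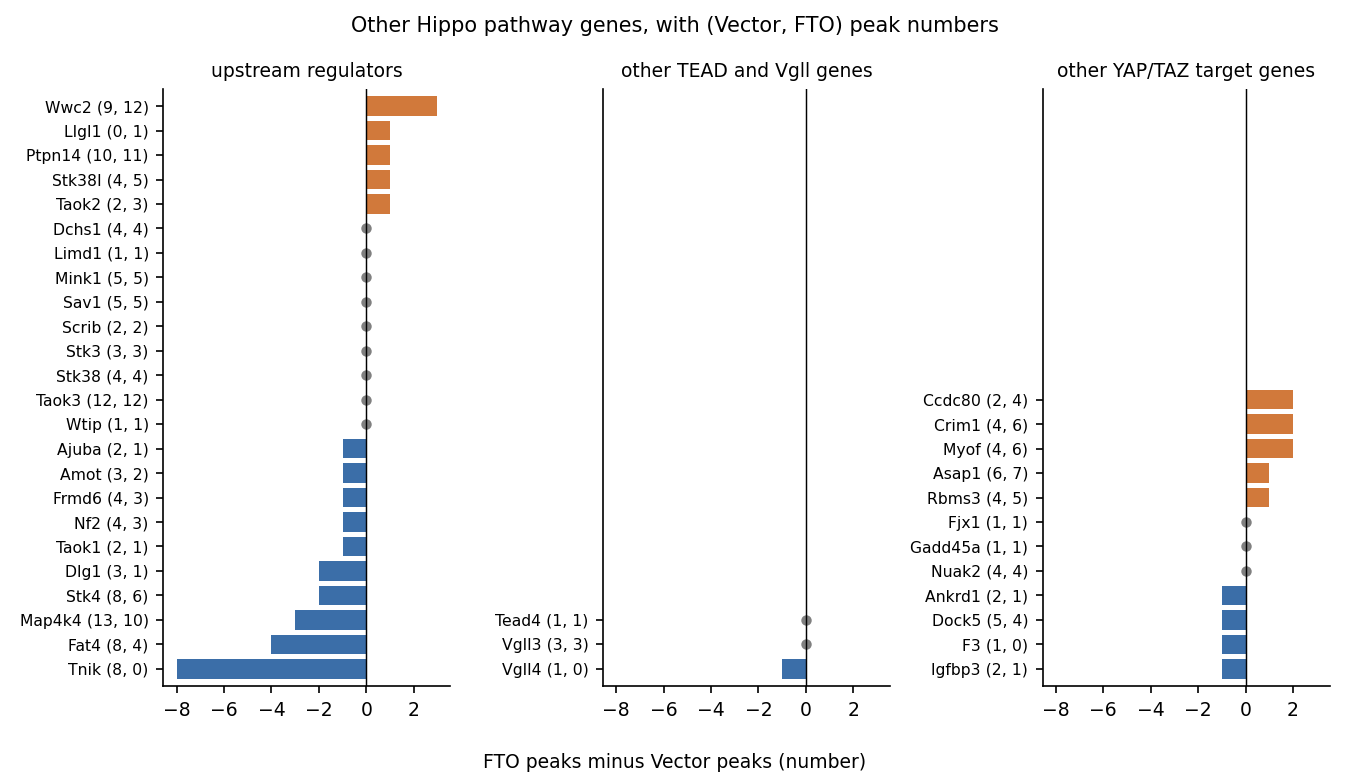
FTO peaks minus Vector peaks (horizontal axis) for the 39 other pathway genes with a peak, in 3 lists, with the Vector and FTO numbers in brackets after each name; grey points mark a difference of 0, and Ptpn14, which is in 2 lists, is drawn once. Differences run from -8 for Tnik to 3 for Wwc2, and those of the target genes lie between -1 and 2.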

How the data were processed

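NRCFs were profiled by m6A-seq in 4 libraries, 1 IP and 1 input for each of the Vector and FTO groups. The authors deposited 1 peak list per group, whose values are peak lengths in bp and are not normalized. The submitters' processing notes name cutadapt 1.9.3, HISAT2 2.0.4 and the build rn6, and peaks are named after MACS. The threshold and the annotation are not given in the sources used here. Library depth is unknown, and no correction for it was made.

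Symbols were matched to gene IDs with the RefSeq table of GRCr8, which found all 10 genes and held 7489 of the 7723 gene IDs of the Vector list and 6920 of 7145 of the FTO list. A gene whose ID differs between that table and the authors' annotation would be counted as having no peak. Positions and sequences of peaks were not used. Peaks were paired 1 to 1 by gene and exact length, where a gene is its ID or, failing that, its transcript. The pairing was tested on simulated lists, and the outcome of that check is not reported here. Gene lists are textbook lists, apart from the YAP and TAZ target genes, which are a target signature whose source is not given here. The 10 genes and the lists were chosen with earlier results of these data known. Of the other pathway genes, those that differed by 2 or more peaks or had peaks in 1 list alone were named by rule, and the others as examples after their values were seen. Alternatives were minimum lengths of 100 and 200 bp, distinct lengths, scaling by list size, lengths within 10% and assignment by transcript. Python 3.11.15, pandas 2.3.3 and scipy 1.17.1 were used.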

Additional observations from a re-analysis of the deposited data

How the results depend on the processing

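Of 38 values under the alternatives, 28 stayed within 1.5 times the reported count or length and 10 did not. The 28 include the values for distinct lengths and for assignment by transcript, which could not move. None of the 10 genes had a length repeated within a list or a peak without a gene ID to assign. When only peaks of 200 bp or more were kept, the 10 genes had 20 Vector peaks and 19 FTO peaks, and 19 pairs had the same length. Then 1 gene (Lats1) had fewer FTO peaks, 7 had as many and 0 had more, and 7 of the other pathway genes had fewer FTO peaks and 7 had more. This follows from leaving out the shorter peaks, since 4 of the 5 peaks listed in 1 group alone were shorter than 200 bp. Shares over all genes at this minimum length were not computed. With the FTO numbers multiplied by 1.194, 3 genes had fewer peaks, 0 as many and 5 more, because equal whole numbers are no longer equal under that scaling. The same scaling, which was added for the other pathway genes after the data were seen, gave 15 with fewer and 24 with more peaks. Here too equal numbers count as more, as they would for the 37.4% of all genes with as many peaks. Shares over all genes after scaling were not computed. With peaks of at least 100 bp, Tead1 had 2 peaks in each list, and 28 peaks were common. Lengths within 10% gave 29 common peaks, as did exact lengths. Peak numbers depend on depth, which is unknown here. With a single library pair in each group, leaving out a replicate was not done, and no paired analysis was possible because a single pair of lists was compared.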

Other observations

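Of 12 pairs of related genes, chosen after the data were seen, 5 shared a peak length within a list and 7 did not. In the Vector list, Taok1, a kinase upstream of MST1 and MST2, had peaks of 204 and 213 bp, and both lengths were also listed for its relative Taok3. In the FTO list, 213 bp was shared. Map4k4 and Tnik shared 57 and 176 bp in the Vector list, Map4k4 and Mink1 shared 126 and 211 bp there and 176 and 211 bp in the FTO list, and Stk38 and Stk38l shared 123 bp in the Vector list and 52 bp in the FTO list. Myh6 and Myh7, which are near-identical genes, shared 256, 309 and 390 bp in the Vector list and 309 and 390 bp in the FTO list. No length was shared in either list between Mink1 and Tnik, Taok2 and Taok3, Stk3 and Stk4, Yap1 and Wwtr1, Lats1 and Lats2, Amotl1 and Amotl2 or Tead1 and Tead3. Sharing between unrelated genes was not measured. How reads that fit more than 1 of these genes were assigned was not tested, nor was what sets the listed lengths.

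Gadd45a, a target gene of YAP and TAZ with 1 peak in each list, had a length of 679 bp in the Vector list and 650 bp in the FTO list, and is named here after its values were seen.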
